A study of Homo sapiens with 96 samples.

Results

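The genes described here build and run the protein folding line of the endoplasmic reticulum (ER): its chaperones, disulfide isomerases, degradation factors, stress sensors, translocon subunits and cargo receptors. They were chosen by name, as a list of 32 gene symbols, and every probe set annotated to one of those symbols was taken. Of the 32 genes, 29 were measured, by 57 probe sets, among 11944 genes measured in all. DNAJB11, SEC61G and KDELR2 had no listed probe set. For 16 members there was 1 probe set and for 13 there were several, of which the one with the largest spread over the arrays was read.

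MDA-MB-231, an established human breast cancer cell line, was profiled on 96 Affymetrix arrays of total RNA after inhibition of the MEK kinases by U0126. Cells at 80% confluence were held in low serum for 24 h before treatment, given 10 uM U0126 or its DMSO vehicle for 30 min, and stimulated with 10 ng/ml EGF at 0 h. The arms were untreated control, EGF, DMSO-EGF and U0126 with EGF, sampled at 0.5, 1, 4, 8, 12, 24 and 48 h, with control, DMSO and U0126 arrays at 0 h taken without EGF. The whole course was run as 3 series of 32 arrays: 2 in flat culture (2D03 and 2D04, named as in the labels) and 1 in 3D culture (3D04). The labels do not say what the cells were embedded in or that series are separate cultures, so the p-values measure the spread between these arrays, which may be technical. In 3D each arm had 1 array at each time after 0 h, so neighbouring times, pooled into a window, served as repeats. The p-values of those 3D windows thus measure how an arm's difference varies between times, not between repeated cultures. Every 3D array belongs to 1 series, so culture and series cannot be told apart.

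Secretory and membrane proteins enter the ER through the SEC61 translocon and are folded there by BiP (HSPA5), GRP94 (HSP90B1), the lectin chaperones calnexin and calreticulin, and the protein disulfide isomerases. When unfolded proteins accumulate, the sensors IRE1 (ERN1), ATF6 and PERK start the unfolded protein response: IRE1 splices XBP1 mRNA and ATF6 is cut to release a transcription factor, and both induce chaperone and degradation genes. PERK phosphorylates eIF2-alpha and raises translation of ATF4, a route shared with the amino acid sensor GCN2, and ATF4 drives amino acid synthesis, transport and tRNA charging genes, with DDIT3, TRIB3 and CHAC1 at its stress end. The ATF4 genes were therefore followed beside the ER genes as a separate list, of which 38 were measured.

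The deposited values are ratios on a scale taken as log2, centred for each probe set on a reference that the sources used here do not give, so only differences between arrays are read and no level is set against that of another gene. Array medians lay between -0.06 and 0.03. The number of arrays limits the precision. In bulk RNA of this kind, fewer cells expressing a gene and less RNA per cell cannot be told apart. Of the 5 genes listed as markers of MDA-MB-231 cells, 2 were lower in 3D (CD44 by a log2 difference of -0.81 and CAV1 by -0.33), and of 5 luminal markers (ESR1, GATA3, KRT19, ERBB3 and CDH1) KRT19 was higher (0.61). None of the 3 measured leukocyte markers differed, and of 3 fibroblast markers PDGFRB was lower (-0.30). Since the values are ratios, absence of a marker cannot be read from them.

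Promoter stretches are shown for genes that the results below turn on, since the ER and ATF4 arms act through different DNA elements. Among 250 bases upstream of the start in RefSeq promoters (GRCh38.p14; 29 of the 32 ER genes matched, and 32 genes of the ATF4 list), 4 motifs were searched on both strands. The ER stress element (ERSE, the letters CCAAT and CCACG with 9 free bases between them) was present in 6 ER genes (CALR, CANX, HSP90B1, HSPA5, PDIA6 and XBP1), which is 20.7% of them, against 26 of 35116 promoters overall (0.074%) and 0 of the ATF4 list. The shorter ERSE-II (ATTGG and CCACG with 1 free base between them) was present in HERPUD1, HYOU1 and SDF2L1 (10.3%), against 18 promoters overall (0.0513%). The UPRE core (TGACGTGG), bound by XBP1, was present in HYOU1, KDELR3 and SSR3 (10.3%), against 215 promoters overall (0.612%), and in HYOU1 it overlaps the ERSE-II. Among 79 genes of a wider ER pathway list, described below, the UPRE core was present in 10 (12.7%), ERSE in 2 (2.53%) and ERSE-II in 0. The amino acid response element (CARE, TGATGNAA) was present in 2 ER genes, HERPUD1 and SRPRB (6.9%), and in 7 of the 32 ATF4 genes (21.9%), against 1104 promoters overall (3.14%). A gene counts once here if any of its promoters matched, but the overall share counts single promoters, so the shares differ in unit. A match is a match of letters only. The gene lists were chosen by name as parts of these arms, so the shares describe the lists and are not a test. In the stretches below, written 5′ to 3′ on the gene's strand, capitals mark the fixed letters of ERSE or ERSE-II, and in HERPUD1, ASNS and CHAC1 also those of CARE.
HSPA5 (chr9:125241371-125241429, minus strand): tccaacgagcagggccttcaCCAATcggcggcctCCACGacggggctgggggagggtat
HSP90B1 (chr12:103930196-103930359, plus strand): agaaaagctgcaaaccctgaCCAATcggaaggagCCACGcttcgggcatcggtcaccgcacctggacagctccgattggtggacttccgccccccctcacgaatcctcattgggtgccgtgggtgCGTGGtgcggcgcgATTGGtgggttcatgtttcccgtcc
CALR (chr19:12938364-12938422, plus strand): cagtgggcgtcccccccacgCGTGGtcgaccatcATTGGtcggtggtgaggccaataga
PDIA6 (chr2:10812833-10812891, minus strand): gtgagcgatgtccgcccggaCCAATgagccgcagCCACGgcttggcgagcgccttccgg
XBP1 (chr22:28800583-28800641, minus strand): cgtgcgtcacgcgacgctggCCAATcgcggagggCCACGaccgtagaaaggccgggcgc
SDF2L1 (chr22:21642094-21642144, plus strand): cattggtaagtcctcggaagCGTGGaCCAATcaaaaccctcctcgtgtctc
HYOU1 (chr11:119057254-119057410, minus strand): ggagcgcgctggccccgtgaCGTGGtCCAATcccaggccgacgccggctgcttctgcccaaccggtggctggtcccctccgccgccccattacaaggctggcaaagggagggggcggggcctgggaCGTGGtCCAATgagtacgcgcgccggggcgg
HERPUD1 (chr16:56931946-56932055, plus strand): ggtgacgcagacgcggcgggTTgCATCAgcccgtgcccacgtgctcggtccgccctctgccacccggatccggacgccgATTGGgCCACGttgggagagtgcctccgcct
ASNS (chr7:97872449-97872496, minus strand): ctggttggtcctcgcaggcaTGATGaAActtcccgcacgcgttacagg
CHAC1 (chr15:40953242-40953289, plus strand): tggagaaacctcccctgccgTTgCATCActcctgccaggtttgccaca

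HSP90B1 and HYOU1 each carry the element in 2 copies, and HERPUD1 carries both kinds of element within the stretch shown. Of the genes with an ERSE, CALR, HSP90B1 and PDIA6 were higher in untreated 3D cells, XBP1 was lower, and HSPA5 and CANX were not called. With series as a random block PDIA6 and XBP1 were the ones among them still called.

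Untreated 3D cells had more of the disulfide isomerases PDIA4 and PDIA6, and less XBP1, HERPUD1 and SSR3, than untreated 2D cells. Of the 29 measured genes 10 were higher and 6 lower in the 9 control arrays of 3D than in the 18 of 2D, at an adjusted p under 0.05 in limma with time in the model (55.2% of the members). With series as a random block those 5 genes were called and the other 11 were not. That fit shared a single correlation of arrays within a series over all genes (0.421). With 1 series in 3D and 2 in 2D, its p-values say little about how far series vary for a single gene. For each of the 5 the 2D04 median lay between those of 2D03 and 3D04. Over all genes 33.1% differed, 17.2% higher and 16% lower. The median member differed by 0.06 and the median gene by -0.03, so the members had no common direction.

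Among the chaperones of the BiP and GRP94 systems 3 of 7 were higher and 1 lower, none of them with series as a random block. HYOU1, the ER chaperone GRP170, lay between -0.66 and -0.12 (median -0.26) in the 9 control arrays of 2D03, between -0.37 and -0.15 (median -0.20) in 2D04, and between -0.05 and 0.13 (median 0.09) in 3D04. No 3D array of HYOU1 overlapped a 2D array, and the difference was 0.34 ± 0.05 (SE), 1.26-fold (adjusted p = 0.000205, limma). HSP90B1, the ER paralog of HSP90, had medians of 0.05, 0.04 and 0.36 in 2D03, 2D04 and 3D04, and its 3D range of 0.21 to 0.56 overlapped that of 2D03, whose highest array was 0.30. It was higher in 3D by 0.33 ± 0.07 (adjusted p = 0.00217, limma). SDF2L1, a component of ER chaperone complexes, ranged from -1.59 to -0.94 in 2D03, from -0.36 to 0.31 in 2D04 and from -0.47 to 0.48 in 3D04. The 3D arrays of SDF2L1 thus overlapped those of 2D04 and lay above all of 2D03, and the difference from 2D as a whole was 0.83 ± 0.26 (adjusted p = 0.0226, limma). DNAJB9, a BiP co-chaperone that holds IRE1 inactive, had medians of 0.67, -0.10 and -0.28 and was lower, by -0.55 ± 0.19 (adjusted p = 0.0346, limma). Its 3D range, -0.76 to 0.61, covered all of the 2D04 arrays.

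HSPA5 itself, the central ER chaperone, was not called. Its control arrays lay between -0.27 and 0.28 (median 0.20) in 2D03, between -0.31 and -0.12 (median -0.22) in 2D04 and between -0.30 and -0.06 (median -0.22) in 3D04. 3D04 and 2D04 therefore overlapped almost fully while 2D03 stood higher, and the difference of 3D from 2D was -0.15 ± 0.11 (adjusted p = 0.272, limma). MANF, a secreted ER stress protein, differed by 0.23 ± 0.09 (adjusted p = 0.0692, limma).

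Of the 6 lectin chaperones and disulfide isomerases 4 were higher in 3D and none lower, with a median difference of 0.33, and of these PDIA4 and PDIA6 were also called with the random block. PDIA4, a disulfide isomerase also called ERp72, ranged from -0.45 to -0.04 in 2D03, from -0.39 to 0.18 in 2D04 and from 0.34 to 0.87 in 3D04. Every 3D array was above every 2D array, and the difference was 0.88 ± 0.07, 1.83-fold (adjusted p = 9.44e-07, limma). PDIA6 had medians of 0.17, 0.38 and 0.81, with a 3D range of 0.73 to 0.88 above both 2D ranges, and differed by 0.51 ± 0.07 (adjusted p = 6.32e-05, limma). For the other probe sets of PDIA6 the difference ran from 0.10 to 0.49. CALR, calreticulin, had medians of -0.87, -0.09 and 0.35. Its 3D range of 0.22 to 0.60 lay within reach of 2D04, whose highest array was 0.68, but above all of 2D03, which ended at -0.68. The CALR difference was 0.81 ± 0.21 (adjusted p = 0.00926, limma), but for its other probe sets it ran from -0.08 to 0.57. PDIA3 was higher by 0.15 ± 0.04 (adjusted p = 0.0153, limma), and calnexin (CANX) differed by 0.03 ± 0.08 (adjusted p = 0.778, limma).

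Of the 4 sensors, transcription factors and WFS1, XBP1 and ATF6 were lower in 3D, and XBP1 alone with the random block. XBP1, the transcription factor that IRE1 activates, lay between -0.68 and -0.18 (median -0.35) in 2D03, between -1.11 and -0.67 (median -0.88) in 2D04 and between -1.89 and -1.11 (median -1.82) in 3D04. The 3D arrays met those of 2D04 only at the edge, and XBP1 was lower in 3D, by -1.06 ± 0.13 on the log2 scale (2.08-fold, adjusted p = 3.26e-05, limma). ATF6 ranged from 0.19 to 0.95 in 2D03, from -0.05 to 0.20 in 2D04 and from -0.42 to -0.07 in 3D04, with no overlap between 3D and 2D, and was lower, by -0.53 ± 0.13 (adjusted p = 0.00589, limma). ERN1 had medians of 0.07, 0.12 and 0.05, and WFS1, an ER membrane protein of calcium balance, medians of -1.26, -0.95 and -1.03. Neither of these was called.

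The remaining roles were split. HERPUD1, which organises the ER degradation complex, had medians of 1.15, 0.77 and 0.07 and was lower, by -0.81 ± 0.11 (1.76-fold, adjusted p = 4.88e-05, limma). EDEM1, a mannosidase-like factor that hands misfolded glycoproteins to degradation, was higher by 0.32 ± 0.08 (adjusted p = 0.0047, limma). SSR3, a subunit of the translocon-associated protein complex, had medians of 1.16, 0.82 and 0.11 and was lower, by -0.83 ± 0.11 (adjusted p = 7.6e-05, limma). SSR1 of the same complex was higher by 0.22 ± 0.06 (adjusted p = 0.0133, limma), and the channel subunit SEC61A1 was lower, by -0.14 ± 0.05 (adjusted p = 0.0456, limma), a call lost under median centring, quantile normalization or a filter on invariant genes. KDELR3, a receptor that returns KDEL proteins from the Golgi, had medians of 0.42, 0.65 and 1.11 and was higher by 0.56 ± 0.12 (adjusted p = 0.00247, limma).

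**Figure D1:**
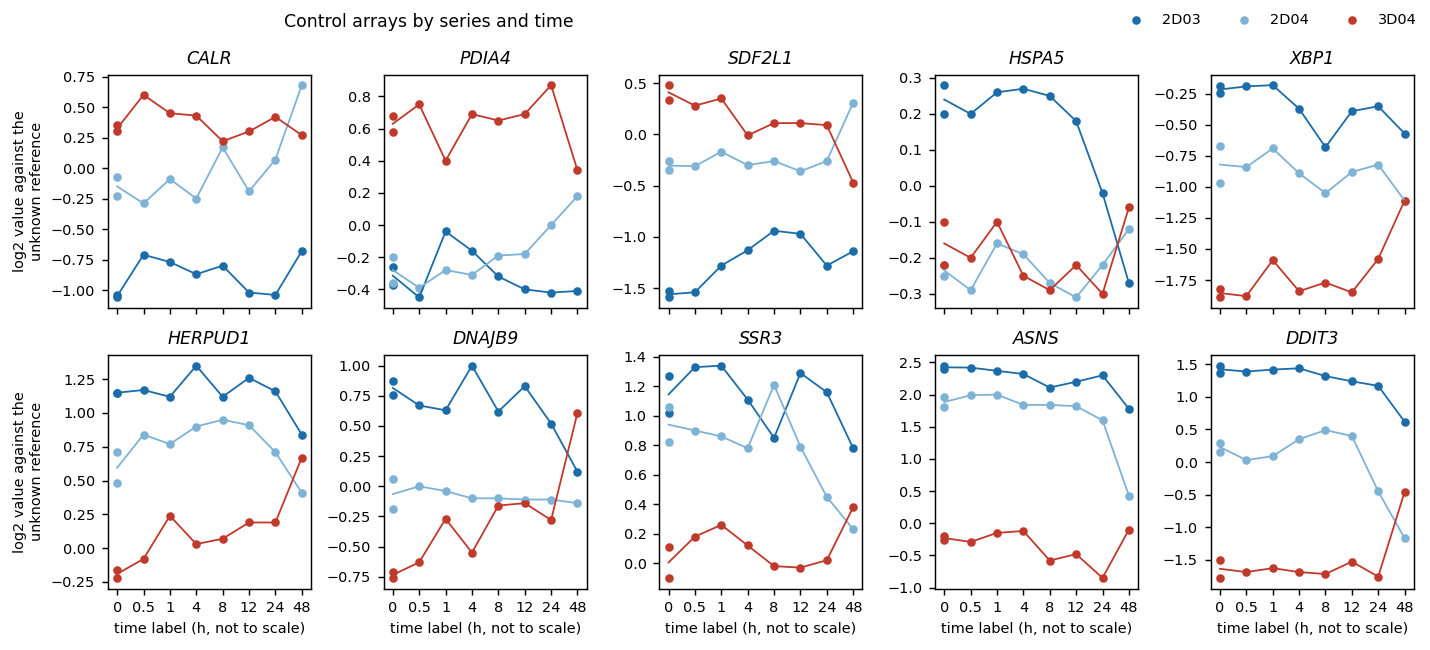
Values of the untreated control arrays (y axis, deposited log2 ratio) by time label (x axis, not to scale), 9 arrays a series, for 8 ER genes and for ASNS and DDIT3 of the ATF4 list. Points are coloured by series (2D03, 2D04, 3D04), and a line joins the means of each series over the time labels. All 9 PDIA4 points of 3D lie above the 18 of 2D, and for SDF2L1, CALR and DNAJB9 the 2 flat series do not overlap each other.

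The flat series also differed from each other in many of these genes. Between the control arrays of 2D04 and 2D03, 7 members were higher and 11 lower (62.1%), while 52.5% of all genes differed. SDF2L1 was higher in 2D04 by 1.05 ± 0.12 (adjusted p = 2.13e-07, limma) and CALR by 0.87 ± 0.09 (adjusted p = 3.62e-08, limma). Between 3D04 and 2D04 the differences were 0.36 ± 0.12 for SDF2L1 and 0.39 ± 0.09 for CALR. DNAJB9 was lower in 2D04, by -0.75 ± 0.14, and so was SEL1L, the adaptor of the degradation ligase, by -0.50 ± 0.06. HSPA5 was lower in 2D04, by -0.38 ± 0.06 (adjusted p = 1.88e-05, limma), whereas 3D04 and 2D04 differed by 0.03 ± 0.06 (adjusted p = 0.756, limma). PDIA4 showed the reverse order, with 0.12 ± 0.08 between the flat series and 0.82 ± 0.08 between 3D04 and 2D04 (adjusted p = 3.44e-08, limma).

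In a fit of all control arrays with an effect per series, 12 members were higher and 5 lower in 3D04 than in 2D04 (31.5% of all genes differed). Against 2D03 in that fit, 11 were higher and 9 lower (64.7% of all genes). Fitted with the arrays of 1 flat series only, 13 were higher and 5 lower against 2D04 (34.7% of all genes). Against 2D03 12 were higher and 8 lower (61.5%). The ranges of the 9 control arrays put 3D outside both flat series in 4 members, HYOU1, PDIA4 and PDIA6 above and ATF6 below, where 3.11% of all genes did so. The ranges of the flat series stood apart from each other in 5 members (DNAJB9, SDF2L1, CALR, SEL1L and SEC23B), where 9.05% of all genes did so. In the fit of both cultures the difference between the flat series is part of the spread. With series as a random block the count fell from 16 to 5 members (5.38% of all genes): PDIA4 (adjusted p = 0.00613, limma) and PDIA6 (0.0234) higher, and XBP1 (0.000919), HERPUD1 (0.00319) and SSR3 (0.0349) lower.

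The same 5 genes were called at 0 h alone, before EGF, where 6.04% of all genes differed: PDIA4 by 0.93 and PDIA6 by 0.61 higher, XBP1 by -1.34, HERPUD1 by -1.06 and SSR3 by -1.04 lower. At 24 and 48 h, where 5.32% of all genes differed, only PDIA4 (0.77) and HSP90B1 (0.54) were called, both higher, and no member was called lower.

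The wider ER pathway, a list of other folding, degradation, translocation, transport and unfolded protein response genes of which 78 were measured, had 27 genes higher and 11 lower in 3D (48.7%, beside 33.1% of all genes). The procollagen hydroxylase subunit P4HA2 was higher by 1.05 ± 0.08, the degradation mannosidase EDEM3 by 1.23 ± 0.20 and the disulfide oxidase ERO1A by 0.83 ± 0.11. ERP29, an ER luminal folding factor, was lower, by -0.50 ± 0.07, the translocon partner SEC63 by -0.46 ± 0.08 and TMBIM6, an ER membrane survival protein, by -0.45 ± 0.07. With series as a random block 6 of the 78 were higher and 2 lower, where 5.38% of all genes differed.

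Most of the ATF4 list was lower in 3D. Of its 38 measured genes 36 were lower in untreated 3D cells, where 16% of all genes were, 1 (ALDH18A1, by 0.30) was higher, and VEGFA was not called (-0.76, adjusted p = 0.0927, limma). The list's median was -1.23, beside -0.03 for all genes and 0.06 for the ER genes. ASNS, asparagine synthetase, was lower, by -2.31 ± 0.16 (4.95-fold, adjusted p = 1.59e-07, limma), and the pseudokinase TRIB3 by -2.64 ± 0.31 (6.21-fold). The glutathione-cleaving CHAC1 was lower, by -2.48 ± 0.36, the transcription factor DDIT3 (CHOP) by -2.14 ± 0.30 and ATF4 mRNA by -0.95 ± 0.12 (adjusted p = 4.13e-05, limma).

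This list also differed between the flat series: 33 of its genes were lower and 1 higher in 2D04 than in 2D03, with a median of -0.49, where 52.5% of all genes differed. For all 38 genes the 2D04 median lay between those of 2D03 and 3D04, against 15 of the 29 ER genes and 6438 of all 11944 genes. With series as a random block 34 were still lower in 3D, where 5.38% of all genes differed. The ER genes held called members on both sides, beside a list whose called genes were lower in all but 1 case.

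**Figure D2:**
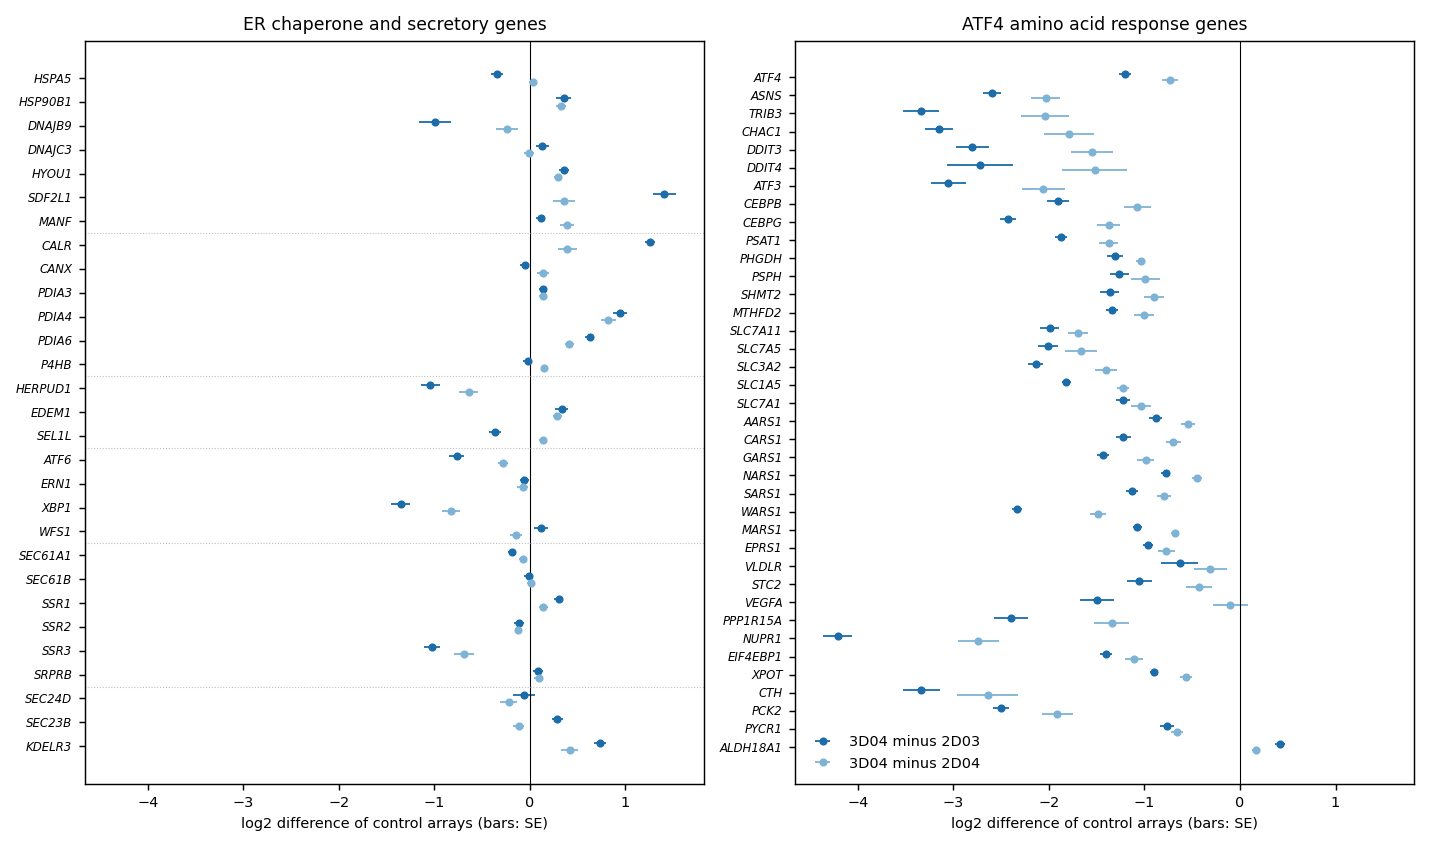
Difference of the 3D04 control arrays from 2D03 and from 2D04 (x axis, log2 difference with its SE), one row a gene, for the 29 ER genes (left) and the 38 ATF4 genes (right). ER genes lie on both sides of 0, with XBP1 low and PDIA4 high against both flat series, and the ATF4 genes lie almost all below 0 against either flat series.

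Over 48 h without treatment no ER gene was called in either culture. In 2D no member differed between 24 to 48 h and 0 h (limma; 2 members and 1774 of all genes had an unadjusted p under 0.05), where 4.16% of all genes did. KDELR3 gave the value farthest from 0, 0.63 ± 0.25 (adjusted p = 0.174, limma), and was called with series as a block. In 2D04 alone 5 members were called, EDEM1, KDELR3, MANF and PDIA4 higher and SSR3 lower, where 13.4% of all genes were. Of the wider pathway SEC31A and P4HA2 rose and MCFD2, SRP19 and SPCS3 fell.

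In 3D no member was called over time either (limma, with 2 members and 1505 of all genes at an unadjusted p under 0.05), where 1.29% of all genes were. In 3D only 0 h had repeated control arrays, so nearly all of the spread in this fit came from the 2D arrays. It includes the gap between the flat series, so the test says little about drift in 3D. The values farthest from 0 were DNAJB9 at 0.90 ± 0.45 (adjusted p = 0.44, limma), HERPUD1 at 0.62 ± 0.25 (0.297), SDF2L1 at -0.60 ± 0.61 (0.861) and XBP1 at 0.51 ± 0.31 (0.601). With array weights 2 members passed, HERPUD1 higher and SRPRB lower. Of the wider pathway the procollagen hydroxylase subunits P4HA1 (1.12 ± 0.20) and P4HA2 (0.88 ± 0.20) rose. No member was called for a difference in drift between cultures (limma, with 2 members and 853 of all genes unadjusted), where 0.176% of all genes were. That test used the same fit and has the same limit.

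EGF by itself left these genes uncalled. The main 2D fits of EGF, vehicle and U0126 had no series block, so the gap between the flat series is part of their spread. In limma no member and no other gene (0%) differed between EGF and control in the early (0.5 and 1 h), middle (4, 8 and 12 h) or late (24 and 48 h) window of either culture. At an unadjusted p under 0.05 the members numbered 0, 2 and 0 in the 3 windows of 2D and 1, 0 and 0 in those of 3D, beside 61, 225 and 55 of all genes in 2D and 375, 372 and 403 in 3D. The vehicle, DMSO-EGF against EGF, likewise gave no call in limma (0%), with 0, 0 and 1 members unadjusted in 2D and 0, 2 and 2 in 3D, beside 58, 102 and 100 of all genes in 2D and 368, 537 and 287 in 3D.

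U0126, always set against the DMSO-EGF arrays of the same window, gave no called member in the first hour. In limma 0 members were called in 2D (0 unadjusted, and 106 of all genes unadjusted) and 0 in 3D (1 unadjusted, and 575 of all genes), where 0.0167% and 0.31% of all genes were called. SDF2L1 differed at 1 h by -0.11 in 2D03, -0.03 in 2D04 and 0.12 in 3D04. WFS1 differed by 0.15, -0.35 and 0.17. SDF2L1 and WFS1 thus had no common sign over the series. DNAJB9 (-0.35, -0.28 and -0.28) and ATF6 (-0.32, -0.39 and -0.23) were below 0 at 1 h in every series. At 0.5 h DNAJB9 was above 0 in each (0.08, 0.04 and 0.08) and ATF6 was split (0.05, -0.26 and 0.17). The fitted difference over both early times lay between -0.23 and 0.16 in 2D and between -0.19 and 0.23 in 3D for all measured members.

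At 4 to 12 h in 2D, WFS1 rose by 0.42 ± 0.12 (adjusted p = 0.0281, limma) and P4HB, protein disulfide isomerase itself, fell by 0.43 ± 0.14 (adjusted p = 0.0455, limma), where 7.25% of all genes changed. The P4HB call rests on a pair of arrays. P4HB differed by -1.27 at 8 h and -1.27 at 12 h in 2D03 but by 0.06 and 0.10 in 2D04, and its other probe set gave -0.11 over the window. CALR showed the same split, -1.49 and -1.33 in 2D03 against 0.42 and -0.01 in 2D04. In 2D03 24 of the 29 members were below 0 at 8 h and 21 at 12 h, where the median of all genes was 0.01 and -0.01. On those 2D03 U0126 arrays at 8 and 12 h the actin control probe sets had a 5′ minus 3′ value of -1.26 and -1.08, while the other 94 arrays lay between -0.36 and 0.31. Its part in these values was not tested. Without that pair no member was called (2.85% of all genes were), with WFS1 and XBP1 called higher when series was a block. With series as a block and all arrays, 5 members were called (19.4% of all genes): WFS1 higher and EDEM1, P4HB, SSR1 and SSR2 lower. Leaving out 1 array gave 0 to 7 called members, the most without the 2D04 U0126 array at 12 h and 6 without the one at 8 h. HSPA5 (0.05 ± 0.14), HSP90B1 (-0.02 ± 0.17), HERPUD1 (-0.07 ± 0.15), XBP1 (0.12 ± 0.19), SDF2L1 (-0.30 ± 0.39), ATF6 (-0.27 ± 0.20), KDELR3 (0.15 ± 0.20) and DNAJB9 (-0.03 ± 0.29) were not called in the fit without a block. Of the wider pathway 8 genes fell and none rose, and of the ATF4 list 1 rose.

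At 24 and 48 h in 2D, WFS1 was the member called. Its U0126 arrays read -0.32 at 24 h and -0.38 at 48 h in 2D03, beside -1.02 and -1.07 with vehicle, and -0.15 and 0.52 in 2D04, beside -0.91 and -0.39. All of these U0126 values were above their vehicle arrays, and the difference was 0.77 ± 0.15 (1.70-fold, adjusted p = 0.000428, limma), where 12.4% of all genes changed. SDF2L1 was lower in each pair, at -1.85 and -1.71 beside -1.37 and -0.98 in 2D03, and at -1.08 and -0.84 beside -0.09 and 0.50 in 2D04. The flat series lay far apart for this gene, and the fit without a block gave -0.89 ± 0.48 (adjusted p = 0.291, limma), and with series as a block the same difference had an adjusted p of 2.59e-05. HSPA5 differed by 0.12 ± 0.18, HSP90B1 by 0.09 ± 0.21, DNAJB9 by 0.27 ± 0.36, HERPUD1 by -0.01 ± 0.18, XBP1 by -0.04 ± 0.24, ATF6 by 0.03 ± 0.24 and KDELR3 by 0.49 ± 0.25 (adjusted p = 0.248, limma), none of them called.

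With series as a block 5 members changed (24.7% of all genes): KDELR3 and WFS1 rose, and ERN1, PDIA6 and SDF2L1 fell. In 2D03 alone 4 were called (11.4% of all genes), HSP90B1, KDELR3 and WFS1 higher and SDF2L1 lower. In 2D04 alone 9 were called (29.2% of all genes), WFS1 higher and DNAJC3, EDEM1, MANF, PDIA4, PDIA6, SDF2L1, SRPRB and SSR1 lower. A second member, ERN1 or PDIA6, joined WFS1 when the 2D03 U0126 array at 24 h, the 2D03 vehicle array at 48 h or either late 2D04 vehicle array was left out. Of the wider pathway CREB3L1, an ER-bound transcription factor, rose by 1.25, with OS9 (0.40) and SRP14 (0.23), while MCFD2 (-0.68), SPCS3 (-0.49) and UFD1 (-0.42) fell. Of the ATF4 list 2 genes fell and none rose, with a median of -0.11.

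In the middle window of 3D, 3 of the 13 chaperones and isomerases fell, with EDEM1 and SRPRB. WFS1 rose by 0.52 ± 0.09 (adjusted p = 0.000642, limma), while 5 members fell: MANF by -0.46 ± 0.08 (adjusted p = 0.000482), SDF2L1 by -0.43 ± 0.11 (0.0135), EDEM1 by -0.36 ± 0.08 (0.00498), DNAJB9 by -0.30 ± 0.10 (0.0495) and SRPRB, a subunit of the signal recognition particle receptor, by -0.30 ± 0.09 (0.0233). The 6 called genes are 20.7% of the members, where 15.3% of all genes changed. Without the 3D vehicle array at 8 h only WFS1 and MANF were called, and without the vehicle or the U0126 array at 12 h, 3 members were. Of the wider pathway 2 genes rose, CREB3L1 (0.78) and OS9, and 7 fell, and of the ATF4 list 4 rose and 6 fell. HSPA5 (-0.06 ± 0.07), HSP90B1 (-0.18 ± 0.11), HERPUD1 (0.02 ± 0.09), ATF6 (0.06 ± 0.08) and KDELR3 (0.23 ± 0.08, adjusted p = 0.0522, limma) were not called, and neither was XBP1.

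At 24 and 48 h in 3D most ER chaperones fell under U0126 while the transcription factor XBP1 rose. ATF6 rose for the probe set read but hardly differed for its other one (0.005). Of the 29 members 16 fell and 4 rose (69.0%), where 38.8% of all genes changed, 18.1% lower and 20.7% higher. The median member differed by -0.26 and the median gene by 0.03. By role, 6 of 7 chaperones of the BiP and GRP94 systems fell and 1 rose (median -0.72), the 6 lectin chaperones and isomerases fell by the probe sets read (median -0.30), and 2 of 3 degradation factors fell. Of the 4 sensors, transcription factors and WFS1, 3 rose and none fell by the probe sets read (median 0.48). One of 6 translocon genes and 1 of 3 COPII and KDEL receptor genes fell.

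SDF2L1 read -1.46 at 24 h and -1.60 at 48 h with U0126 in 3D, while the control, EGF and vehicle arrays of those times lay between -0.67 and 0.09. The difference from vehicle was -1.34 ± 0.14, 2.54-fold lower (adjusted p = 3.15e-07, limma). MANF read -0.96 and -1.19 with U0126 and between 0.09 and 0.31 in the other late arms, and fell by 1.32 ± 0.10 (2.51-fold, adjusted p = 4.67e-09, limma). HYOU1 read -0.61 and -0.74, beside -0.11 to 0.07 in the other arms, and fell by 0.73 ± 0.08 (adjusted p = 6.96e-07, limma). For these 3 genes the U0126 arrays lay below every other late 3D array. PDIA4 read -0.02 and -0.04, beside 0.34 to 0.87, and fell by 0.74 ± 0.12 (adjusted p = 4.9e-05, limma). DNAJC3, a BiP co-chaperone that also restrains PERK, read -1.13 at both times, beside -0.93 to -0.29, and fell by 0.69 ± 0.12 (adjusted p = 0.000109, limma).

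HSP90B1 was less even: with U0126 it read -0.35 at 24 h, where the vehicle array was 0.07 and control 0.36, and -0.03 at 48 h, where vehicle was 0.99 and control 0.56. It fell by 0.72 ± 0.13 (adjusted p = 0.000222, limma), beside -0.27 to -0.32 for its other probe sets. SEC23B, a COPII coat subunit that carries cargo out of the ER, fell by 0.58 ± 0.09 (adjusted p = 2.8e-05, limma). PDIA6 fell by 0.54 ± 0.08 (adjusted p = 4.42e-05, limma), but one of its other probe sets gave 0.26. DNAJB9 fell by 0.37 ± 0.12 (adjusted p = 0.0225, limma). HERPUD1 fell by 0.31 ± 0.11 (adjusted p = 0.0383, limma), and differed by 0.03 at 24 h and by -0.65 at 48 h. Without the 3D U0126 array at 48 h the HERPUD1 difference was 0.02. KDELR3 differed by -0.01 ± 0.10 (adjusted p = 0.951, limma). The other members that fell were EDEM1 (-0.48), SSR1 (-0.39), CANX (-0.31), CALR (-0.28), PDIA3 (-0.26) and P4HB (-0.23). The other probe sets of CALR gave -0.28 to -0.005, and those of SSR1 -0.51 and -0.04.

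XBP1 moved against the chaperones. In 3D it read -0.35 at 24 h and -0.54 at 48 h with U0126, beside -1.55 and -1.25 with vehicle and -1.58 and -1.11 in control. Both U0126 values were above every other late 3D array, and the rise was 0.95 ± 0.13, 1.94-fold (adjusted p = 1.04e-05, limma). WFS1 rose by 0.61 ± 0.11 (adjusted p = 0.000198, limma). ATF6 rose by 0.34 ± 0.10 (adjusted p = 0.0107, limma), but by 0.005 for its other probe set. HSPA5 rose by 0.22 ± 0.08 (adjusted p = 0.0415, limma): it read -0.12 and 0.33 with U0126 and -0.18 and -0.05 with vehicle. This HSPA5 call was lost under median centring (adjusted p = 0.0833) and quantile normalization (0.168), and 24 h alone differed by 0.06.

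The number of members called in late 3D ran from 13 to 21 when 1 array was left out. It was 13 without the vehicle array at 48 h and 14 without the U0126 array at 48 h, and 13 with array weights. The actin 5′ minus 3′ value was -0.09 at 24 h and -0.14 at 48 h on the 3D U0126 arrays. On the other late 3D arrays it lay between -0.01 and 0.05, and its part in these values was not tested. Of the wider pathway 34 genes fell and 9 rose (55.1%, beside 38.8% of all genes). The disulfide oxidase ERO1A fell, by -1.66 ± 0.15, as did P4HA1 by -1.29 ± 0.23 and the COPII GTPase SAR1A by -1.06 ± 0.09, while CREB3L1 rose by 2.02 ± 0.19, the COPI subunit COPB2 by 0.64 ± 0.09 and the cargo receptor ERGIC3 by 0.58 ± 0.07.

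**Figure D3:**
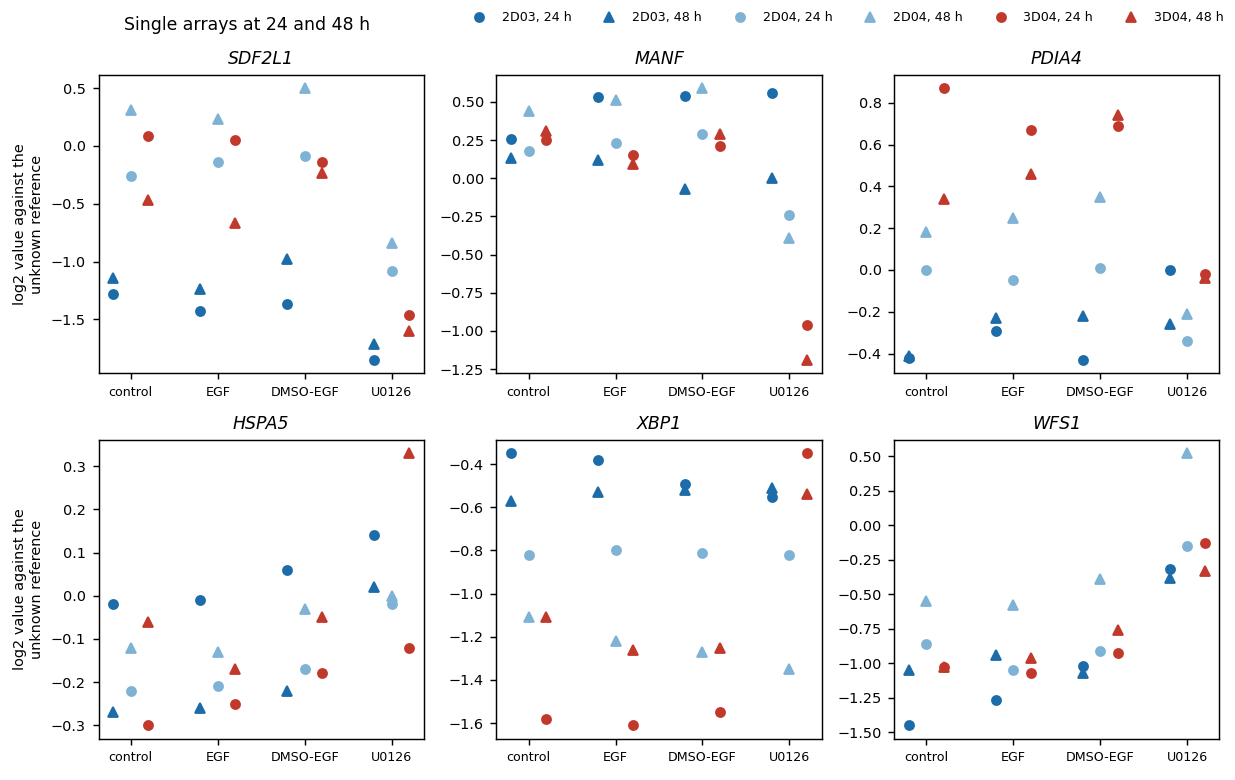
Deposited log2 ratio (y axis) of single arrays at 24 h (circles) and 48 h (triangles) in the control, EGF, DMSO-EGF and U0126 arms of 2D03, 2D04 and 3D04, for SDF2L1, MANF, PDIA4, HSPA5, XBP1 and WFS1. SDF2L1 is lowest with U0126 and WFS1 highest with U0126 at both times of every series, MANF is low with U0126 in 2D04 and 3D04, and XBP1 is high with U0126 in 3D04.

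Fitted by time over the 3 series as pairs of U0126 and vehicle arrays, 1, 4, 4 and 10 members were called at 8, 12, 24 and 48 h. Up to 24 h that share was near or below the share of all genes called. WFS1 was the 1 member called at 8 h, higher by 0.56 ± 0.10 (adjusted p = 0.00196, limma), where 6.87% of all genes were called. At 12 h WFS1 (0.60) and SEL1L (0.28) were higher and SDF2L1 (-0.68 ± 0.15, adjusted p = 0.00433) and EDEM1 (-0.51) lower, where 12.4% of all genes changed. The 12 h pair of 2D03 holds a U0126 array with the low actin value, and EDEM1 differed by -0.83 in that pair, by -0.33 in 2D04 and by -0.36 in 3D04. For SEL1L the other probe sets disagreed: over the 2D middle window they gave -0.31 to 0.07, beside 0.23 for the one read. At 24 h WFS1 (0.75) and SEL1L (0.26) were higher and SDF2L1 (-0.93) and MANF (-0.56) lower, where 21.6% of all genes changed.

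At 48 h WFS1 rose by 0.68 ± 0.10 (adjusted p = 3.68e-05, limma) and 9 members fell, 34.5% of the members called in all, where 28.9% of all genes changed (15.2% higher, 13.7% lower). SDF2L1 fell by -1.15 ± 0.15 (2.21-fold, adjusted p = 3.74e-06, limma), MANF by -0.80 ± 0.20 (0.00394), HYOU1 by -0.50 ± 0.13 (0.00533), DNAJC3 by -0.49 ± 0.14 (0.0125) and PDIA6 by -0.46 ± 0.09 (0.000396). The others were PDIA4, by -0.46 ± 0.15 (adjusted p = 0.0259, limma), EDEM1 by -0.35 ± 0.11 (0.0179), ERN1 by -0.31 ± 0.11 (0.0329) and SEC23B by -0.29 ± 0.11 (0.0474). In the 2D03 pair at 48 h, MANF (0.07), HYOU1 (-0.06), DNAJC3 (0), PDIA4 (-0.04) and SEC23B (0) lay near 0. ERN1 differed by 0.06 in 3D04, while SDF2L1, PDIA6 and EDEM1 were below 0 in every series. HSPA5 differed by 0.22 ± 0.08 (adjusted p = 0.0604, limma), XBP1 by 0.21 ± 0.18 (0.453), HERPUD1 by -0.18 ± 0.11 (0.285) and HSP90B1 by -0.32 ± 0.18 (0.215). DNAJB9 (-0.03), ATF6 (0.26) and KDELR3 (0.20) were not called. Over the 6 late pairs, SDF2L1 and PDIA6 were lower with U0126 in 6 of 6, and WFS1, HSPA5 and SEL1L higher in 6 of 6. Without the pairing, 5 members in place of 11 were called over all times.

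SDF2L1 and WFS1 show the course pair by pair. SDF2L1 differed by 0.39, -0.06 and -0.18 at 4 h in 2D03, 2D04 and 3D04, by -0.48, -0.27 and -0.47 at 8 h, and by -0.75, -0.65 and -0.63 at 12 h. At 48 h it reached -0.73, -1.34 and -1.37. The 3 series lay close together at 12 h, and at 48 h the 2D03 pair stood nearest to 0. WFS1 differed by -0.07, 0.24 and 0.44 at 4 h, by 0.56, 0.62 and 0.50 at 8 h, and by 0.69, 0.91 and 0.43 at 48 h. All 3 series were above 0 from 8 h on.

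**Figure D4:**
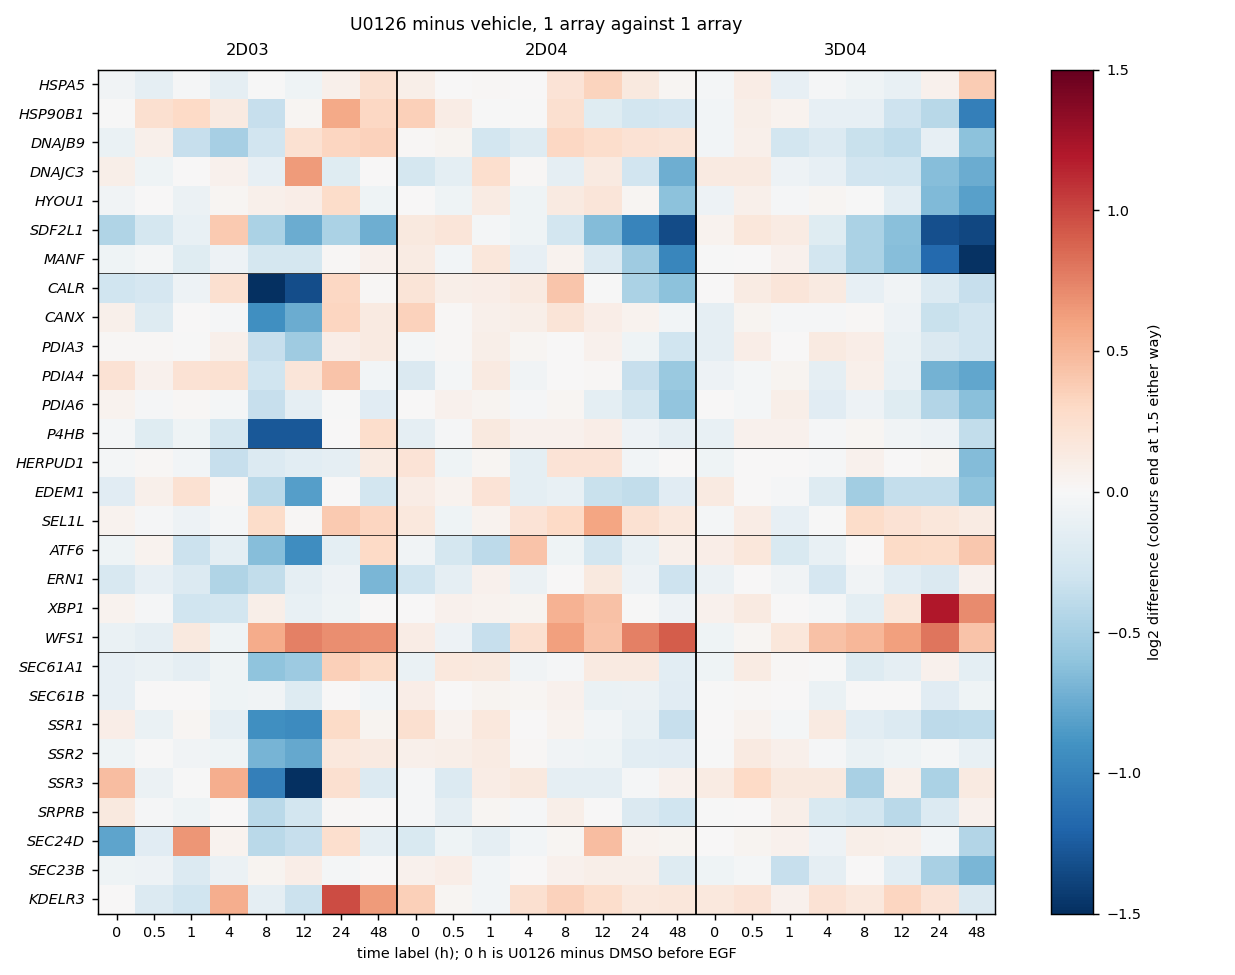
Log2 difference of U0126 from vehicle (colour, ends at -1.5 and 1.5) for the 29 measured ER genes (rows, by role) at each time label (columns) in 2D03, 2D04 and 3D04. At 0 h the difference is U0126 minus DMSO without EGF. WFS1 is high from 8 h in all 3 series, SDF2L1 is low from 8 h, the chaperone rows are low at 24 and 48 h mainly in 3D04 and at 48 h in 2D04, and the 2D03 columns at 8 and 12 h are low for many members, with medians of -0.34 and -0.26.

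The late change under U0126 differed between 3D and 2D in 6 members, where 10.1% of all genes differed. MANF (-0.97 ± 0.17, adjusted p = 2.53e-05, limma), HYOU1 (-0.64 ± 0.13, 0.000341), DNAJB9 (-0.64 ± 0.19, 0.0171), PDIA4 (-0.61 ± 0.17, 0.0114) and SEC23B (-0.55 ± 0.12, 0.000613) changed more downward in 3D, and XBP1 more upward (0.99 ± 0.16, 1.49e-05). SDF2L1 differed by -0.46 ± 0.19 (adjusted p = 0.144, limma), HERPUD1 by -0.30 ± 0.14 (0.196) and HSPA5 by 0.10 ± 0.11 (0.719). HSP90B1 (-0.81 ± 0.29, adjusted p = 0.0649, limma), KDELR3 (-0.50 ± 0.19, 0.0856) and ATF6 (0.32 ± 0.20, 0.41) were not called either. The count was 11 without the 2D04 U0126 array at 48 h and 4 without the 3D vehicle array at 48 h.

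Set against each flat series in a fit with an effect per series, the difference held for fewer genes in one case and more in the other. Against 2D04, 3 members differed (5.37% of all genes): MANF by -0.57 ± 0.15 (adjusted p = 0.0157, limma), SEC23B by -0.54 ± 0.14 (0.0136) and XBP1 by 1.00 ± 0.18 (0.000298). Against 2D03, 13 differed (12.2% of all genes), XBP1 upward and 12 downward. Between the flat series MANF was the member that differed, by -0.80 ± 0.15 in 2D04 relative to 2D03 (adjusted p = 0.00569, limma; 0.427% of all genes). MANF differed by 0.02 and 0.07 at 24 and 48 h in 2D03, by -0.53 and -0.98 in 2D04 and by -1.17 and -1.48 in 3D04. XBP1 differed by -0.06 and 0.01, by -0.01 and -0.08, and by 1.20 and 0.71, so the flat series differ for MANF and lie together for XBP1.

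The ATF4 list under U0126 also changed mainly in late 3D. There 22 of 38 fell and 3 rose (65.8%, beside 38.8% of all genes), with a median of -0.45. TRIB3 fell by -1.33 ± 0.19 (adjusted p = 1.95e-05, limma), CHAC1 by -1.49 ± 0.27 (0.000187) and ASNS by -0.81 ± 0.14 (0.000113), while DDIT3 differed by -0.41 ± 0.22 (0.164) and ATF4 mRNA by -0.07 ± 0.07 (0.483). CHAC1 differed by -0.65 at 24 h and -2.32 at 48 h in 3D04, by 0.11 and -0.84 in 2D04, and by -0.49 and -0.63 in 2D03. DDIT3 differed by 0.13 and -0.94 in 3D04, with opposite signs at the 2 times. At 48 h over the 3 series 17 of the list fell and 3 rose, where 28.9% of all genes changed. The late change differed between 3D and 2D for 17 genes, 1 upward and 16 downward, where 10.1% of all genes differed. In late 2D ASNS (-0.12 ± 0.29), TRIB3 (-0.11 ± 0.60), CHAC1 (-0.46 ± 0.63), DDIT3 (0.32 ± 0.59) and ATF4 (0.01 ± 0.22) were not called.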

How the data were processed

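Total RNA of 96 samples was hybridised to Affymetrix arrays. The deposited table holds values for 22930 probe sets from -5 to 5.7, taken as log2 and per the submitters' processing notes made with RMA (no version given). How each probe set was centred is not given in the sources used here. Of the probe sets 524 are array controls. In the platform annotation 19513 had 1 gene symbol, 125 several and 3292 were not listed.

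Each gene was read by its probe set with the largest SD over the 96 arrays, without a filter on low values, which left 11944 genes. Differences were fitted in limma 3.58.1 under R 4.3.3 (lmFit, eBayes with a variance trend, Benjamini-Hochberg over all genes, threshold 0.05). The 2D fit held 64 arrays (33 residual df), the 3D windows 28 (12), the control arrays 27 (11), the 3 series by time 48 (16) and the joint fit of both cultures 84 (45). Fits with an effect per series held 84 (36) and, for control arrays, 27 (17), and were added after seeing the data. Arms held 4, 6 and 4 arrays in the early, middle and late windows of 2D and 2, 3 and 2 in 3D. No pair of arrays was identical.

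In the labels, 05h was read as 0.5 h and UO126 as U0126. The repeat numbers follow the series in the labels, and over 31 groups same-numbered flat arrays deviated together (correlation 0.228 to 0.818, median 0.634, over 465 pairs), so series was also fitted as a replicate block.

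The members and lists were chosen with earlier results of these data known. One symbol, CABP1, was entered in the pathway list by mistake and removed before values were read. Genes named with full values are called members, at most 8 a direction by size, plus 8 ER genes and 5 ATF4 genes named always, and at most 3 a direction of the wider pathway. A few other members with values below the threshold, and those with array values, were chosen after their values were seen. Alternatives were another probe set rule, a filter on invariant genes, other scalings, array weights, no variance trend, the replicate block, each flat series alone and each array left out.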

Additional observations from a re-analysis of the deposited data

Results flagged for a closer look

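The change under U0126 at 24 and 48 h differed between the 3D series and the 2 flat series, by a test of the difference in limma, in 6 ER genes and in 4 of the ATF4 genes that are always named. Downward differences were found for MANF (-0.97, adjusted p = 2.53e-05), HYOU1 (-0.64, 0.000341), SEC23B (-0.55, 0.000613), PDIA4 (-0.615, 0.0114) and DNAJB9 (-0.64, 0.0171), and an upward one for XBP1 (0.99, 1.49e-05). For the ATF4 genes the values were -1.23 for TRIB3 (3e-05), -0.70 for ASNS (0.00042), -0.72 for DDIT3 (0.0125) and -1.02 for CHAC1 (0.0162). Culture and series cannot be told apart in these values.

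Among the 4 untreated 2D arrays at 0 h, EDEM1 read 0.15 on 1 array and 0.33 to 0.35 on the others. Chance sets such an array apart in about 1 in 20 groups.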

How the results depend on the processing

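The number of called ER genes depended on how series was treated. For 3D against 2D control arrays it was 16, and 5 with series as a random block. The 2D drift count of 0 became 1 with the replicate block (chosen after seeing the data) and 5 in 2D04 alone, and the 3D drift count of 0 became 2 with array weights. For the 2D middle window the count of 2 became 1 with the mean of all probe sets, the probe set of highest mean or quantile normalization, 0 with array weights or without the 2D03 U0126 arrays at 8 and 12 h, 5 with the replicate block, 8 in 2D03 alone and 5 in 2D04 alone. For the 2D late window the count of 1 became 2 with quantile normalization, 5 with the block, 4 in 2D03 alone and 9 in 2D04 alone. The 3D late count of 20 became 13 with array weights. Over all times in the 3 series 11 became 5 with no replicate block. The 6 late differences between 3D and 2D became 10 with the mean of probe sets. With an effect per series they became 13 against 2D03 and 3 against 2D04, both chosen after seeing the data. Leaving out 1 array gave 14 to 16 for control arrays, 0 to 7 for the 2D middle, 1 to 2 for the 2D late, 2 to 6 for the 3D middle and 13 to 21 for the 3D late window, 7 to 12 by time and 4 to 11 for the late difference, and 0 to 0 for both early windows and the drifts. P4HB in the 2D middle window turned to 0.0733 in 2D04 alone. HERPUD1 in late 3D ran from -0.643 without the 3D U0126 array at 24 h to 0.0233 without the one at 48 h. The cause of these changes was not tested.

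For single genes, 1148 of the values with 1 array left out kept their direction and side of the threshold, 81 lost the call, 9 gained it and 1 turned. Under the other settings 971 kept theirs, 47 lost it, 26 gained it and 1 turned. Median centring moved an array's median by at most 0.07 and quantile normalization by at most 0.054. Signal over background cannot be read from centred ratios, so weakly expressed genes could not be set apart.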
